A study of Mus musculus with 4 samples.

Results

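The genes described here are the coactivators of the PGC1 family and the regulators of mitochondrial biogenesis they work with: Ppargc1a, Ppargc1b, Pprc1, Esrra, Nrf1, Gabpa, Tfam, Tfb2m and Ppara. They were taken as every probe set whose platform annotation names exactly 1 gene, that gene being one of these 9. This gave 16 probe sets for 9 genes, of 22626 probe sets and 12393 named genes in all. Ppargc1a had 5 probe sets, Nrf1 had 3 and Gabpa had 2, and each of the other 6 genes had 1.

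The arrays were made from the mouse line 3T3-F442A, preadipocytes that become fat cells in a dish. There were 2 groups, shTRPV4 (cells with a stable hairpin against Trpv4, which encodes a calcium-permeable cation channel) and shGFP (cells with a stable control hairpin), with 2 arrays each. Cells of both groups had been infected with a hairpin retrovirus, selected with 2 ug/ml puromycin for 2 days, and differentiated with 850 nM insulin over 8 days, with rosiglitazone, an agonist of PPAR gamma, present for the first 2 days. Rosiglitazone and insulin were therefore part of the control condition too. The labels do not say whether the replicates of a group were separate infections or cultures, so the p-values cover just the spread between arrays of a group, which could be technical.

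PGC1 coactivators do not bind DNA themselves. They dock on nuclear receptors such as ERR alpha (Esrra) and PPAR alpha (Ppara) and on the nuclear respiratory factors NRF1 and GABP, and raise transcription of nuclear genes for mitochondrial proteins. Among those genes are Tfam and Tfb2m, whose products enter mitochondria and start transcription of mitochondrial DNA. In fat, Ppargc1a is best known for its induction by cold and adrenergic signals in brown adipocytes.

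Upstream sequences of several members are shown first because the regulators of this pathway bind the promoters of one another. RefSeq promoter windows on GRCm38.p6 matched 8 of the 9 genes, with 9 windows, since Nrf1 has a pair of them. Ppargc1b had no match. The 250 bases before each annotated start were searched on both strands for 4 short motifs chosen with these windows already seen. The 100 bases before the start are printed 5′ to 3′ for 3 members among those with the larger positive differences and, beside them, for Tfam and Ppara, with motif letters in capitals.
Ppargc1a, chr5:51567726-51567825, minus strand: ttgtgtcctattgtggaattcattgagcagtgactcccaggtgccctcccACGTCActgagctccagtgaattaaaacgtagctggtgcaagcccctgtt
Esrra, chr19:6921809-6921908, minus strand: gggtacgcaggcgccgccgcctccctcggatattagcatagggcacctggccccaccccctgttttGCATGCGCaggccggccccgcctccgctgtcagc
Tfb2m, chr1:179546277-179546376, minus strand: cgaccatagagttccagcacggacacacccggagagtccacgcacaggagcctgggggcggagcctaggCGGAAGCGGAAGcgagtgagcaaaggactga
Tfam, chr10:71238045-71238144, minus strand: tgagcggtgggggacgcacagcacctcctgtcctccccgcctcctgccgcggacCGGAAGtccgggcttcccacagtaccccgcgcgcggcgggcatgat
Ppara, chr15:85735676-85735775, plus strand: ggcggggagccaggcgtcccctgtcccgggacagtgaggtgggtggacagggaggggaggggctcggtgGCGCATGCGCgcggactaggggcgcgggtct

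The capitals in the Ppargc1a stretch are the CREB half-site TGACGT, read on the opposite strand as ACGTCA, beginning 50 bases before the start. That half-site was in 6.47% of all 32851 promoter windows over the same 250 bases. The NRF1 half-site GCATGCGC began 34 bases before the start of Esrra, and in Ppara it occurred on both strands in overlapping copies, at 31 and 29 bases. It was in 2.26% of all windows. The GABP core CGGAAG was found in Tfb2m at 31 and 25 bases, in Tfam at 46 bases and, as CTTCCG, in Gabpa at 93 bases before the start, and in 13.6% of all windows. The ERR half-site AAGGTCA was in 4.08% of all windows and in 0 of the 9 member windows. A match describes the letters of a window and does not show that a factor binds there.

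Ppargc1a and Ppargc1b were higher in the arrays labelled shTRPV4, on 3 of 5 probe sets and on the only probe set. Differences run shTRPV4 minus shGFP, in units of log2(intensity + 16) of quantile normalized arrays, with the standard error (SE) and limma's p adjusted over all 22626 probe sets. A probe set was called where that p was under 0.05. By that rule 4 of the 16 member probe sets (25%) were higher and 0 lower, against 4.54% higher and 5.36% lower over all probe sets (9.9% in either direction), and 3 of the 4 read the same gene. At an unadjusted p under 0.05, 7 of the 16 passed, against 30.6% of all probe sets.

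**Figure D1:**
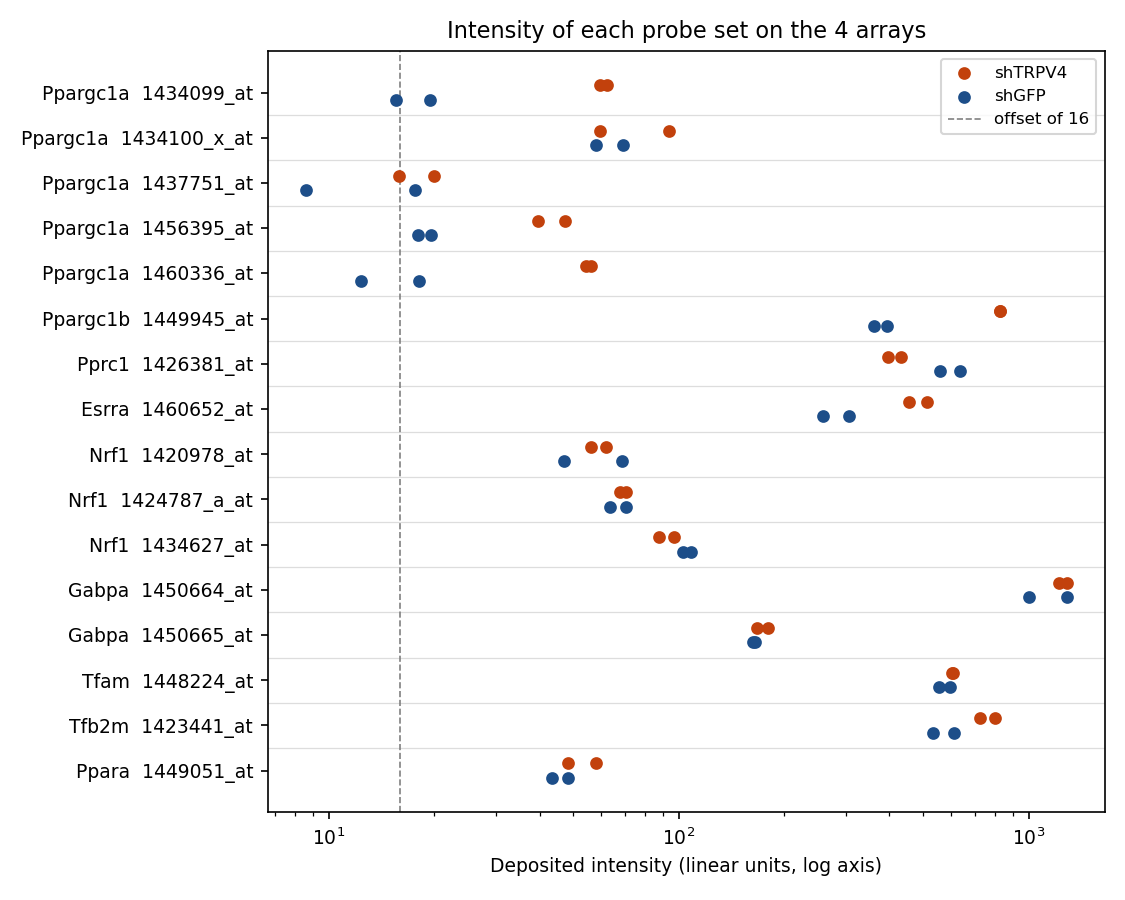
Deposited intensity (linear units, log axis) of the 16 probe sets on the 4 arrays, 1 point per array, with shTRPV4 above shGFP in each row and a dashed line at the offset of 16. The points of shTRPV4 lie to the right of both shGFP points for 8 probe sets, among them Ppargc1b, Esrra, Tfb2m and 3 of Ppargc1a, and to the left for Pprc1 and 1 Nrf1 probe set.

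Ppargc1b was the called member above the median brightness of all probe sets. It encodes the closest relative of PGC1 alpha and a strong coactivator of ERR alpha. Probe set 1449945_at gave 826.0 and 826.1 in shTRPV4 arrays, against 360.7 and 394.5 in shGFP arrays. The groups were well apart, and both arrays labelled shTRPV4 gave nearly the same value. The log2 difference was 1.15 (SE 0.07, 95% interval 0.96 to 1.33, adjusted p = 0.015), a 2.21-fold higher level. Over all probe sets 0.641% had a difference of at least 1, and 3 of the 16 member probe sets did. They were this one and the Ppargc1a probe sets 1434099_at and 1460336_at. The latter read a single gene, around the offset in shGFP arrays, so the size of their differences depends on it.

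Ppargc1a encodes PGC1 alpha, the coactivator that gives the family its name. Probe set 1434099_at gave 62.3 and 59.6 in shTRPV4 arrays, against 15.5 and 19.4 in shGFP arrays (log2 difference 1.24, SE 0.09, adjusted p = 0.017). On 1460336_at the readings were 54.2 and 56.0 in shTRPV4 arrays, against 18.1 and 12.3 in shGFP arrays (1.23, SE 0.12, adjusted p = 0.022). On 1456395_at they were 47.2 and 39.7 in shTRPV4 arrays, against 19.6 and 18.03 in shGFP arrays (0.81, SE 0.09, adjusted p = 0.026). On all 3 probe sets the groups did not overlap, and the arrays labelled shGFP lay around the offset of 16, so the size of each difference depends on that offset. With an offset of 1 the differences were 1.80, 1.86 and 1.22, in the order given, and the calls for 1460336_at and 1456395_at were lost (adjusted p = 0.059 and 0.051). With an offset of 64 they were 0.64, 0.61 and 0.39, and all 3 were called. Without detection calls, whether the shGFP readings stood above background is unknown, so no fold is given.

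The other 2 Ppargc1a probe sets were not called. The annotation gives 1434100_x_at the same source sequence as 1434099_at, and the _x_at suffix marks probe sets with probes that can also match other sequences. It read 59.4 and 93.7 in shTRPV4 arrays, against 57.9 and 69.2 in shGFP arrays (0.27, 95% interval −0.34 to 0.87, adjusted p = 0.48). The groups overlapped, and replicate 2 of shTRPV4 was the one array that read high. The dimmest of the 5, 1437751_at, read 20.0 and 15.8 in shTRPV4 arrays, against 17.6 and 8.59 in shGFP arrays (0.24, 95% interval −0.28 to 0.77, adjusted p = 0.46), again with overlap. With the 5 probe sets averaged on the log2 scale, Ppargc1a was higher by 0.76 (SE 0.07, adjusted p = 0.015).

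The third family member, Pprc1, differed in the opposite direction without passing the threshold. Pprc1 encodes PRC, a coactivator known as an immediate early gene of serum-stimulated growth. Its probe set read 431.6 and 396.6 in the arrays labelled shTRPV4, against 559.4 and 636.2 in the arrays labelled shGFP, with no overlap. The log2 difference was −0.46 (SE 0.09, 95% interval −0.72 to −0.20, adjusted p = 0.064). It passed with an intensity trend in the fit (adjusted p = 0.025), with an offset of 64 (0.029) and with the dimmest 25% (0.030) or 50% (0.0072) of probe sets left out. It did not pass with the values as deposited, median centring, an offset of 1, averaged probe sets (0.052) or the replicate block.

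Among the transcription factors that PGC1 proteins act on, Esrra had the largest difference, just outside the threshold. ERR alpha, its product, is an orphan nuclear receptor that binds promoters of respiratory chain and fatty acid oxidation genes. It read 512.6 and 456.1 in the arrays labelled shTRPV4, against 306.0 and 257.9 in the arrays labelled shGFP, and the groups did not overlap. The log2 difference was 0.80 (SE 0.15, 95% interval 0.38 to 1.22, adjusted p = 0.056). It was called under 7 of 13 alternatives, among them the values as deposited (0.75, adjusted p = 0.046) and median centring (0.85, adjusted p = 0.032), and not with an offset of 1, with the replicate block or with any array left out.

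Nrf1, which encodes nuclear respiratory factor 1, showed no measurable difference on its 3 probe sets. The brightest, 1434627_at, read 88.0 and 97.0 in shTRPV4 arrays, against 108.3 and 103.0 in shGFP arrays (−0.09, 95% interval −0.32 to 0.15, adjusted p = 0.55). Probe set 1424787_a_at read 68.1 and 70.9 in shTRPV4 arrays, against 63.6 and 70.8 in shGFP arrays (0.12, 95% interval −0.08 to 0.31). Probe set 1420978_at read 61.9 and 56.0 in shTRPV4 arrays, between the 68.7 and 47.0 of the shGFP arrays (0.10, 95% interval −0.40 to 0.61). The signs differed between probe sets, and the intervals leave room for a change either way, up to 0.61 on 1420978_at.

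Gabpa, the DNA-binding subunit of GABP, also had no called probe set. Its bright probe set 1450664_at read 1221 and 1283 in shTRPV4 arrays, against 1004 and 1284 in shGFP arrays (0.17, 95% interval −0.18 to 0.51, adjusted p = 0.44). Probe set 1450665_at, which the annotation ties to the same source sequence, read 179.6 and 167.7 in shTRPV4 arrays, against 164.9 and 163.0 in shGFP arrays (0.15, 95% interval −0.09 to 0.40, adjusted p = 0.33). The spread of the bright probe set came from the shGFP arrays, and its difference was 0.02 without shGFP replicate 1 and 0.31 without shGFP replicate 2. Ppara, a fatty acid-sensing receptor that is a main partner of PGC1 alpha in oxidative tissues, read 58.1 and 48.1 in shTRPV4 arrays, against 43.4 and 48.3 in shGFP arrays (0.22, 95% interval −0.06 to 0.50, adjusted p = 0.24), with overlap.

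Of the factors that act inside mitochondria, Tfb2m lay just outside the threshold and Tfam well outside it. Tfb2m encodes the factor that opens mitochondrial promoters for the RNA polymerase. It read 725.3 and 799.6 in the arrays labelled shTRPV4, against 533.3 and 611.6 in the arrays labelled shGFP, with no overlap. The log2 difference was 0.44 (SE 0.08, 95% interval 0.22 to 0.67, adjusted p = 0.054), and it was called with median centring (0.50, adjusted p = 0.044), with an offset of 64, with an intensity trend and with either filter on dim probe sets, but not with the values as deposited. Tfam encodes the protein that packages mitochondrial DNA and bends its promoters. It read 605.4 and 607.9 in shTRPV4 arrays, against 552.9 and 594.9 in shGFP arrays (0.12, SE 0.06, 95% interval −0.06 to 0.30, adjusted p = 0.29). Its groups did not overlap, but the gap between them was smaller than the distance between the shGFP arrays.

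**Figure D2:**
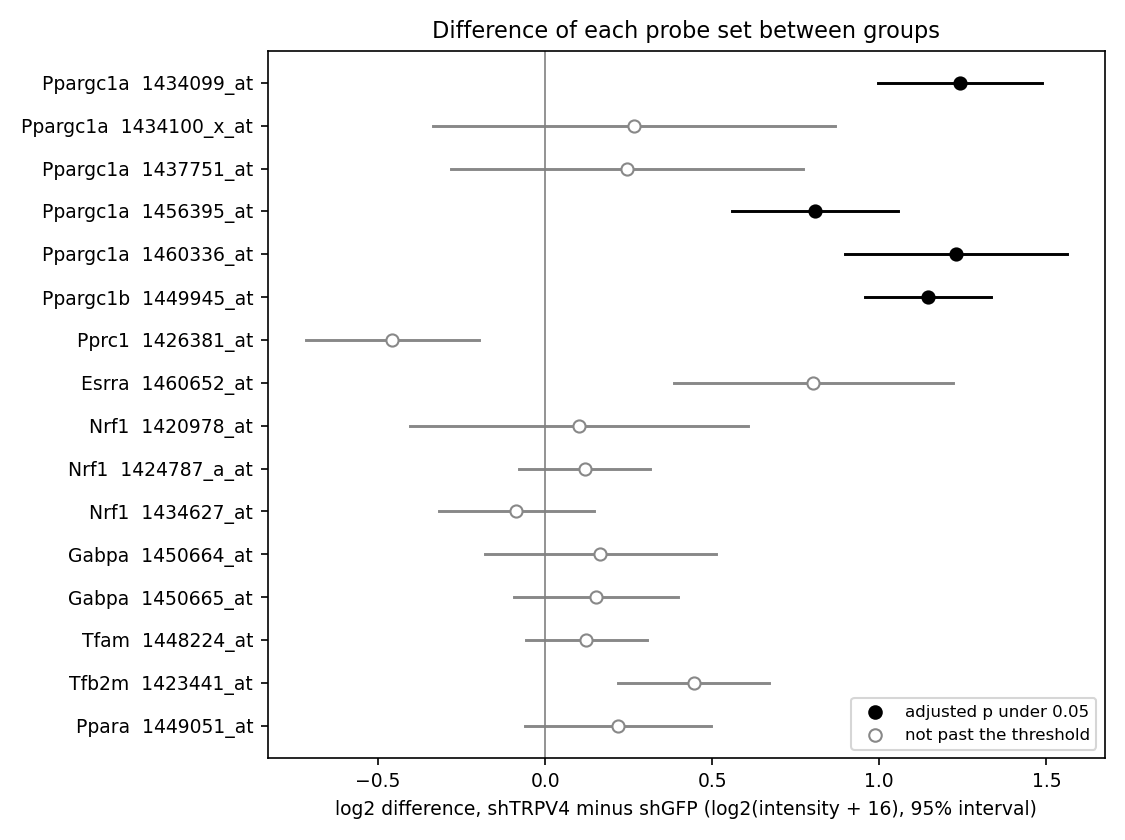
Difference of each probe set, shTRPV4 minus shGFP, on the log2(intensity + 16) scale, with limma's 95% interval. Filled points had an adjusted p under 0.05 over all probe sets, and these are Ppargc1b (1.15) and 3 of the 5 Ppargc1a probe sets (0.81 to 1.24).

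Of the 16 probe sets, 14 had a positive difference and 2 a negative one, with a median of 0.23, where 52.5% of all probe sets had a positive difference and the median of all was 0.02. In 8 of them (50%) both shTRPV4 readings lay above both shGFP readings, against 26.2% of all probe sets. In 2 (12.5%) both lay below, against 30.3%. Probe sets of 1 gene are not independent, and 7 of the 16 lay above the median brightness of all probe sets. With 2 arrays against 2, an exact permutation test of a single probe set cannot give a two-sided p below 0.33, so the calls rest on limma's pooling of spread across probe sets.

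Those calls are limited by the number of arrays. When each array in turn was dropped, and when replicate number entered as a block, limma called 0 of the 16 probe sets and 0 of all probe sets, in fits with 1 residual degree of freedom. At an unadjusted p under 0.05, 7 or 8 of the 16 passed in each of these fits, against 20.1% to 26.1% of all probe sets with an array left out and 30.3% with the block. The difference of Ppargc1b stayed between 1.12 and 1.18 with any array left out, and those of the 3 called Ppargc1a probe sets between 0.73 and 1.36. Esrra ranged from 0.65 to 0.96, Tfb2m from 0.39 to 0.50, and Pprc1 from −0.54 to −0.38.

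**Figure D3:**
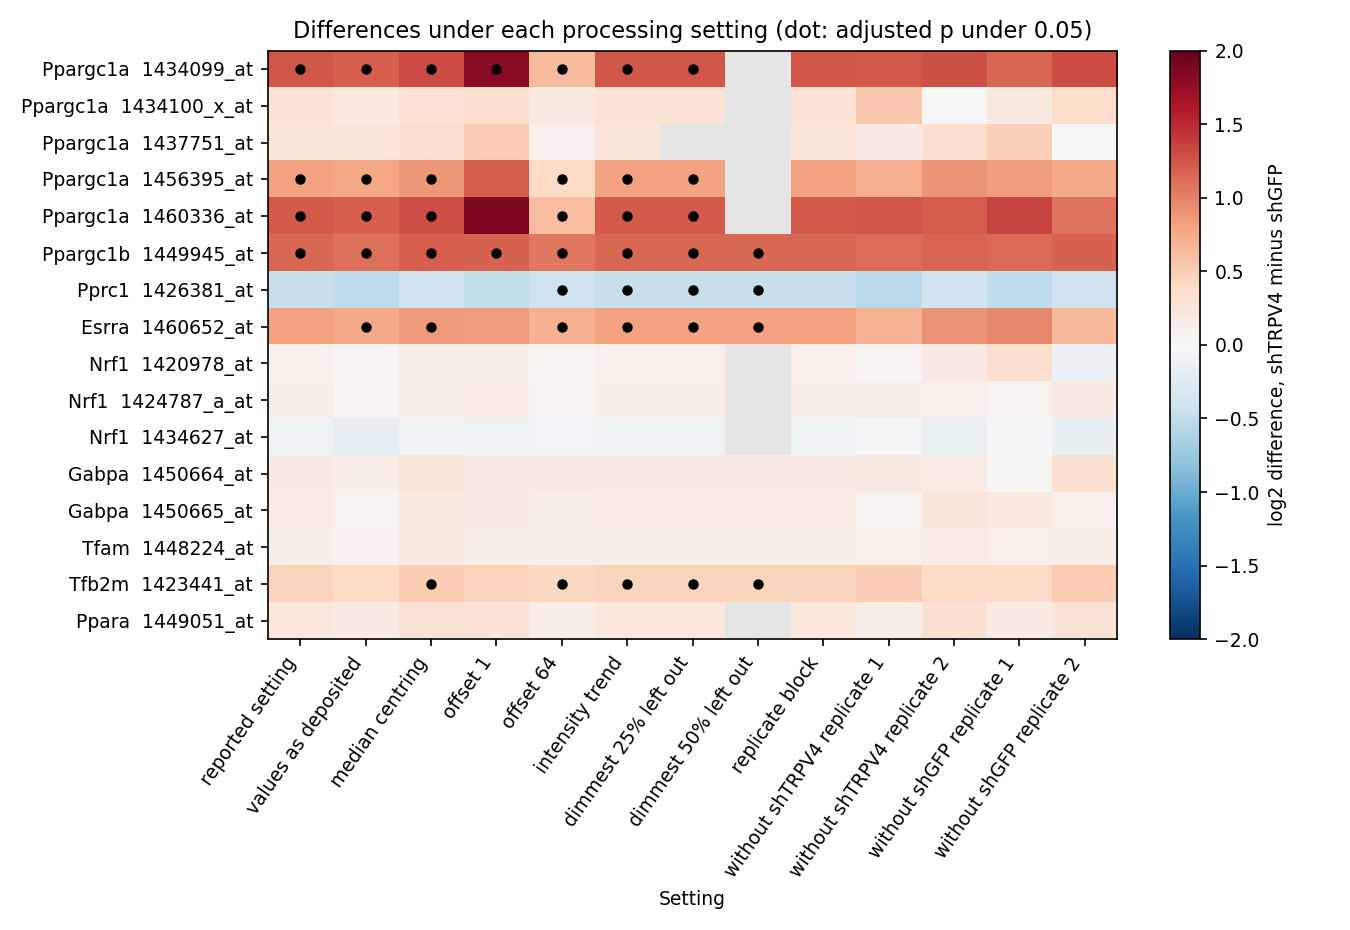
Log2 difference (colour, shTRPV4 minus shGFP) of each probe set under 13 settings, with a black dot where the adjusted p was under 0.05 and grey where a filter removed the probe set. Ppargc1b is dotted in all 8 settings that neither block by replicate nor leave out an array, while Esrra, Tfb2m and Pprc1 gain dots under some of them.

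The cells carried high readings of fat cell markers in both groups. Some markers of fat cells and some of other cell states moved between the same arrays. Adipoq, which encodes adiponectin, read 13294 and 14169 in shTRPV4 arrays, against 11784 and 11816 in shGFP arrays (0.16, adjusted p = 0.20, not called). The brightest Fabp4 probe set read 19142 and 19625 in shTRPV4 arrays, against 18222 and 18099 in shGFP arrays. It was the brightest of all probe sets, and quantile normalization gives the top rank the same value on every array. Its difference of 0.00 after normalization was therefore set by the method and shows nothing about a change. Further Fabp4 probe sets differed by 0.04 to 0.46, none called. Of 11 measured adipocyte markers 3 were higher (27.3%), 1 lower (9.09%) and 7 not called, where 5.33% of all genes were higher and 6% lower. Their summed intensity was 64673 and 67166 in shTRPV4 arrays, against 57805 and 56321 in shGFP arrays. Sums given here are of deposited intensities, before normalization. Of 17 preadipocyte and fibroblast markers 7 were lower and 0 higher, and their summed intensity was 90220 and 92444 in shTRPV4 arrays, against 103645 and 107841 in shGFP arrays. Pdgfra (−1.25) and Dlk1 (−1.24) were among those lower, and 0 of the 17 lay below the offset on all arrays. Of 12 macrophage markers 3 were lower and 1, Cd68, higher (1.49, a call lost with an offset of 1), with sums of 703.7 and 671.9 in shTRPV4 arrays, against 992.7 and 1110 in shGFP arrays, and with Ptprc, Cd163 and Fcgr1 below 16 on every array. The part of these shifts in the differences of the PGC1 genes was not tested, and a change in the share of cells of one type cannot be told apart from a change in RNA per cell. The targeted gene gave no check of the labels, since Trpv4 read 80.1 and 79.5 in arrays labelled shTRPV4, against 43.7 and 93.8 in arrays labelled shGFP (0.32, adjusted p = 0.55).

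Of 10 measured brown and beige fat markers, 2 were higher (20%), 0 lower and 8 not called, with a median difference of 0.00. Over all genes 5.33% were higher and 6% lower. These markers were dim, with 0 of the 10 above the median brightness of all probe sets and 1 below the offset on all arrays. Cox8b, a muscle and brown fat subunit of cytochrome c oxidase, read 80.5 and 64.2 in shTRPV4 arrays, against 21.4 and 16.8 in shGFP arrays (1.38, adjusted p = 0.023). Ebf2, a transcription factor gene of brown fat precursors chosen here after its values were seen, read 147.8 and 154.1 in shTRPV4 arrays, against 67.2 and 49.0 in shGFP arrays (1.25, adjusted p = 0.030). Both calls were lost with an offset of 1. Ucp1, the uncoupling protein of brown fat, was near the offset on every array, at 14.3 and 15.3 in shTRPV4 arrays, against 19.6 and 10.8 in shGFP arrays. Cidea was low too, at 17.1 and 11.6 in shTRPV4 arrays, against 28.9 and 17.4 in shGFP arrays (−0.34, adjusted p = 0.32).

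Other genes of the pathway were read as 4 lists, with each gene represented by its brightest single-gene probe set. Over all 12393 genes 5.33% were higher and 6% lower, with a median difference of 0.02. With an offset of 1 the calls of the list genes named here were lost except for Nrip1, Med1, Ucp3 and Sod2, and with the values as deposited those of Ppp3ca, Tefm, Tfb1m and Sdhc were lost. Of 52 measured regulators and partners of PGC1 proteins, 6 were higher (11.5%), 4 lower (7.69%) and 42 not called, with a median of 0.10. Nrip1, which encodes RIP140, a corepressor that binds nuclear receptors and holds down oxidative genes in mouse fat, had the largest difference. It read 2400 and 2514 in arrays labelled shTRPV4, against 1216 and 1191 in arrays labelled shGFP (1.04, SE 0.07, adjusted p = 0.016), and its second probe set was higher as well (1.32).

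The other named genes of that list that were higher were Prkag2, a regulatory subunit of the energy-sensing kinase AMPK (0.82, adjusted p = 0.034), Sirt3, a mitochondrial deacetylase (0.64, adjusted p = 0.025), and Lpin1, a phosphatidate phosphatase that in mouse liver also coactivates PPAR alpha with PGC1 alpha (0.62, adjusted p = 0.032). All further probe sets of Prkag2 and Lpin1 were higher too. The 4 lower genes were Med1, a Mediator subunit that nuclear receptors contact (−0.73), the pocket protein gene Rbl1 (−0.65), the calcineurin catalytic subunit gene Ppp3ca (−0.51), and Nfe2l2, the NRF2 factor of the antioxidant response, which is not GABP (−0.47). Adjusted p-values of the 4 were 0.021, 0.037, 0.036 and 0.033. The probe sets of Med1 and Rbl1 disagreed. Of 5 further Med1 probe sets 1 was lower and 4 were not called, with both signs, and the other Rbl1 probe set had a difference of 0.35, so both calls were lost when probe sets were averaged.

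Other regulators of the fixed naming set did not pass. Sirt1, a nuclear deacetylase that acts on PGC1 alpha, read 134.0 and 137.2 in shTRPV4 arrays, against 119.8 and 122.9 in shGFP arrays (0.23, adjusted p = 0.098). Foxo1, an insulin-regulated factor that PGC1 alpha coactivates in mouse liver, differed by 0.30 (adjusted p = 0.075), and 1 of its 3 further probe sets was called (0.65, adjusted p = 0.035). Gabpb1, the partner subunit of Gabpa, differed by −0.33 on one probe set and 0.26 on the other, neither called. Esrrg, the ERR family member typical of heart and muscle, lay near or below the offset, at 17.96 and 3.04 in shTRPV4 arrays, against 8.68 and 10.2 in shGFP arrays.

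Genes that transcribe, copy and maintain mitochondrial DNA were mostly not called. Of 36 measured, 4 were higher (11.1%) and 2 lower (5.56%), with a median of 0.05. The mitochondrial pyrimidine nucleotide carrier gene Slc25a33 read 543.5 and 521.6 in shTRPV4 arrays, against 330.3 and 303.5 in shGFP arrays (0.77, SE 0.10, adjusted p = 0.033). Lonp1, the matrix protease that also degrades TFAM protein, read 1886 and 1874 in shTRPV4 arrays, against 1147 and 1248 in shGFP arrays (0.67, SE 0.07, adjusted p = 0.024). Both genes were apart between groups by several times the distance between replicates. Tefm, a mitochondrial elongation factor, was higher by 0.51 (adjusted p = 0.038), and Tfb1m, the relative of Tfb2m that methylates mitochondrial ribosomal RNA, by 0.44 (adjusted p = 0.046). The second Tfb1m probe set was not called (0.36, adjusted p = 0.065).

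The genes lower in that list were Fastkd5, which acts in mitochondrial RNA processing (−0.51), and Slc25a36, another pyrimidine nucleotide carrier (−0.47). The second Slc25a36 probe set was not called (−0.20, adjusted p = 0.16). The polymerase genes gave no call. Polrmt, the mitochondrial RNA polymerase, differed by 0.19 (adjusted p = 0.25), with its other probe set at −0.34. Polg, the DNA polymerase subunit, differed by 0.35 (adjusted p = 0.067), with further probe sets at −0.01 and −0.27. Ssbp1, the single-stranded DNA-binding protein of the replication fork, read 3337 and 3475 in shTRPV4 arrays, against 3502 and 3896 in shGFP arrays (−0.12, adjusted p = 0.38).

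Nuclear genes known as targets of ERR alpha, NRF1 or GABP had mostly small positive differences, few of them called. Of 48 measured, 4 were higher (8.33%) and 1 lower (2.08%), and 40 (83.3%) lay above 0 (median 0.20), where 53.5% of all genes were positive. Of the 48, 45 lay above the median brightness of all probe sets, and the positive share among equally bright genes was not computed. The mitochondrial carrier gene Ucp3 read 166.8 and 167.2 in shTRPV4 arrays, against 56.2 and 54.6 in shGFP arrays (1.42, SE 0.07, adjusted p = 0.015). Its second probe set was not called (0.52, adjusted p = 0.073), and the average of both was 0.97 (adjusted p = 0.014). Ndufs1, a core complex I subunit (0.60), Alas1, the first enzyme of heme synthesis (0.56), and Sdhc, a subunit of succinate dehydrogenase (0.37), were also higher, with adjusted p-values of 0.026, 0.030 and 0.0499. The second Sdhc probe set was just outside the threshold (0.39, adjusted p = 0.0502). The single lower gene was Sod2, the mitochondrial superoxide dismutase, which is also known as a target of NF-kappaB. It read 2052 and 2170 in arrays labelled shTRPV4, against 5528 and 5865 in arrays labelled shGFP (−1.42, SE 0.06, adjusted p = 0.015), and its 2 further probe sets were lower as well.

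Other genes of that list in the fixed naming set were not called. Cycs, cytochrome c, read 10612 and 9370 in shTRPV4 arrays, against 10282 and 9530 in shGFP arrays (−0.05, adjusted p = 0.82), and the groups overlapped. Cox5b, a cytochrome c oxidase subunit, differed by 0.25 (adjusted p = 0.090) and Idh3a, a citric acid cycle enzyme subunit, by 0.26 (adjusted p = 0.13). Pdk4, the kinase that restrains pyruvate oxidation, read 473.1 and 439.2 in shTRPV4 arrays, against 441.97 and 444.8 in shGFP arrays (0.10, adjusted p = 0.52). The count of higher genes in this list depends strongly on the setting, with 3 for the values as deposited, 14 with median centring and 21 with an intensity trend, against 4.

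Genes of mitochondrial import, quality control and dynamics also had mostly small positive differences. Of 43 measured, 2 were higher (4.65%) and 1 lower (2.33%), and 37 (86.0%) lay above 0 (median 0.24). Among all genes 5.33% were higher, 6% lower and 53.5% positive. All 43 lay above the median brightness of all probe sets, and the positive share among equally bright genes was not computed. Tomm40, the channel of the outer membrane, read 692.3 and 785.1 in shTRPV4 arrays, against 424.8 and 451.5 in shGFP arrays (0.78, SE 0.07, adjusted p = 0.022). Spg7, which encodes the inner membrane protease subunit paraplegin, was higher by 0.67 (adjusted p = 0.028), and the intermembrane space chaperone gene Timm8a1 was lower (−0.55, adjusted p = 0.028). The second Timm8a1 probe set was not called (−0.33, adjusted p = 0.064). Mfn2, a fusion GTPase and known ERR alpha target, differed by 0.30 (adjusted p = 0.084) and Pink1, a kinase of mitophagy, by 0.42 (adjusted p = 0.065). Tomm20, an import receptor, differed by 0.02 (adjusted p = 0.93) on its brightest probe set, while 1423081_a_at, 1 of 4 others, was lower (−0.80, adjusted p = 0.023). The count of higher genes in this list was 2 with the values as deposited, 6 with median centring and 19 with an intensity trend.

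**Figure D4:**
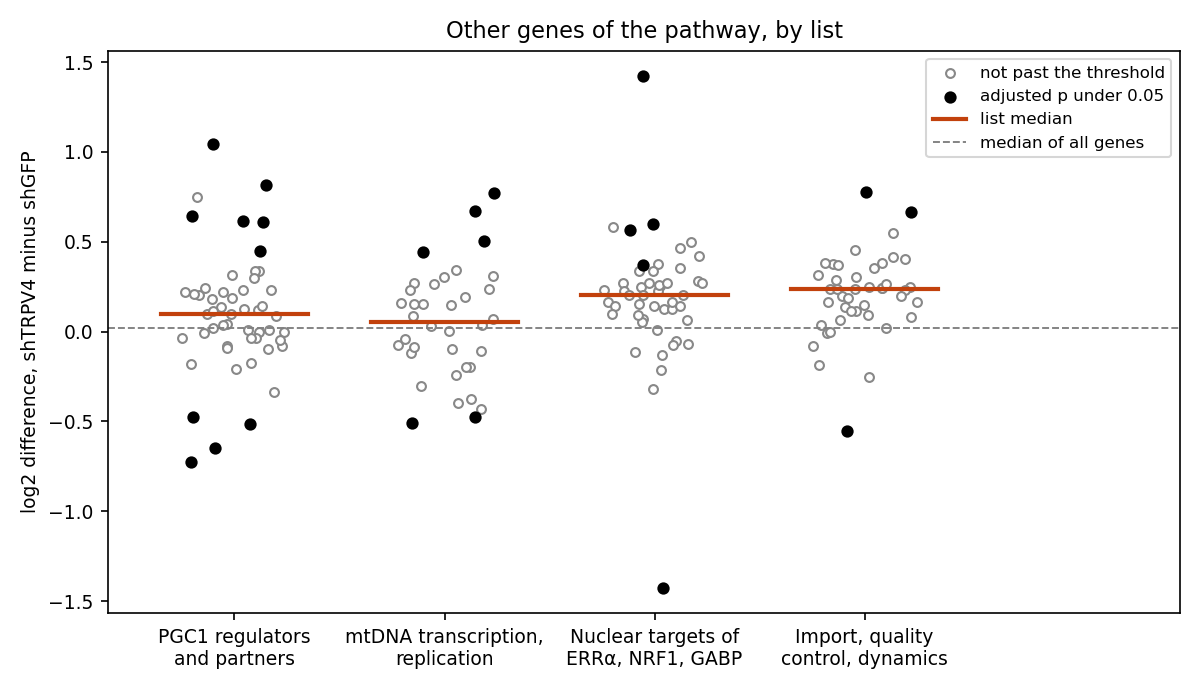
Log2 difference, shTRPV4 minus shGFP, of every measured gene in 4 lists around the PGC1 pathway, with filled points at an adjusted p under 0.05, a bar at each list's median and a dashed line at the median of all genes (0.02). The medians of the nuclear target list (0.20) and the import list (0.24) lie above that line with few filled points.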

How the data were processed

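Total RNA of 4 samples, 2 labelled shTRPV4 and 2 labelled shGFP, was measured on Affymetrix mouse arrays from biotin-labelled cRNA, per the labels. The authors deposited 1 linear intensity per probe set and array. How they summarised, background-corrected and scaled the arrays is not given in the sources used here. Detection calls were not used. Array medians ran from 129.4 to 144.0, a span of 0.14 on the log2 scale, and the number of arrays limits the precision.

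The deposited intensities were taken as log2(intensity + 16), quantile normalized and tested with lmFit and eBayes of limma 3.58.1 (R 4.3.3) over all 22626 probe sets, with 2 residual and 1.80 prior degrees of freedom and Benjamini-Hochberg adjustment. Fold changes are on that offset scale and understate the changes of dim probe sets. On simulated data of this comparison over 22626 probe sets, changes were placed only on probe sets brighter than the median. Among these, 35 of 50 raised by 1 on the log2 scale and 48 of 50 raised by 2 were called. Each size and direction of change was given to just 50 probe sets, where 9.9% of all were called in the data. Adjusted p-values depend on the share of probe sets changed, so these rates need not hold for the data. Recovery of dimmer probe sets, such as every Ppargc1a probe set, was not simulated.

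Genes were named from the platform annotation, with 20380 probe sets naming 1 gene, 691 several and 1555 none here. RefSeq (GRCm38.p6) held the gene IDs of 20351 and changed 0 symbols. Of 202 entries in the 4 pathway lists 179 were measured. All member probe sets were named, as were up to 4 called genes per pathway list and direction with the largest differences, and a fixed set of regulators and markers, of which Prkaa2, Twnk and Plin1 had no representative and are not analysed here. The members, lists and motifs were chosen with earlier results of these data known. Alternatives were other scalings, offsets of 1 and 64, filters on dim probe sets, an intensity trend, averaged probe sets, the replicate number as a block and each array left out.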

Additional observations from a re-analysis of the deposited data

How the results depend on the processing

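Over all probe sets, 1027 were higher and 1213 lower, and 45.9% of calls were higher. The counts were 600 and 1161 with the values as deposited (34.1% higher), 1662 and 1141 with median centring (59.3%), 180 and 426 with an offset of 1 (29.7%), 2130 and 1986 with an offset of 64, 2170 and 1980 with an intensity trend, and 2084 and 1975 or 2642 and 2232 with the dimmest 25% or 50% left out. Of the 16 member probe sets, 4 higher and 0 lower became 2 higher with an offset of 1 (Ppargc1b and 1434099_at) and 6 higher and 1 lower with an offset of 64, an intensity trend or the dimmest 25% left out. With the dimmest 50% left out, 3 higher and 1 lower were called.

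Of the PGC1 regulators, 6 were higher and 4 lower. The higher count was 1 with an offset of 1, 10 with an offset of 64, an intensity trend, averaged probe sets or the 25% filter, and 11 with the 50% filter, and the lower count was 1 with an offset of 1 and 2 with averaged probe sets. Of the mitochondrial DNA genes, 4 higher and 2 lower became 2 higher with the values as deposited, 0 and 0 with an offset of 1, 7 higher with an offset of 64, 4 lower with an intensity trend, and 9 and 7 with the 50% filter. Of the nuclear targets, 4 higher and 1 lower became 1 higher with an offset of 1, 14 higher with median centring, 8 with averaged probe sets, 16 and 2 with an offset of 64, 21 and 2 with an intensity trend, and 11 and 2 or 20 and 3 with the filters. Of the import genes, 2 higher and 1 lower became 0 and 0 with an offset of 1, 6 higher with median centring, 7 with averaged probe sets, 16 with an offset of 64, 19 with an intensity trend, and 10 or 23 with the filters. The cause of these shifts was not tested.

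Every count was 0 with the replicate block and 0 with any array left out, where each fit has 1 residual degree of freedom. Between 4543 and 5913 probe sets then had an unadjusted p under 0.05, and 6858 with the block. The deviations of same-numbered arrays from their group means correlated at 0.12. The labels do not say whether a number marks a shared culture or day, so whether same-numbered arrays share more than a number is unknown.

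The signs that turned belonged to uncalled values. With an array left out, differences ranged from −0.0014 to 0.54 for Ppargc1a 1434100_x_at (lowest without shTRPV4 replicate 2), −0.12 to 0.32 for Nrf1 1420978_at, −0.40 to 0.42 for Esrrg, −0.16 to 0.061 for Cycs, −0.088 to 0.13 for Tomm20, −0.20 to 0.21 for Ucp1 and −0.093 to 0.73 for Trpv4. Averaged probe sets gave 0.044 for Nrf1, −0.073 for Polrmt, 0.059 for Ssbp1 and −0.20 for Tomm20. Esrrg was −0.21 with an offset of 1 and −0.00085 as deposited, Cycs 0.11 with median centring and 0.011 as deposited, and Ucp1 −0.0032 as deposited.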
